A study of Mus musculus with 8 samples.

Results

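The genes described here encode the enzymes, membrane proteins and proton pump of the lysosome, without the cathepsins. They were chosen by name, as 36 gene symbols, and a probe belongs to the set if its annotated symbol is one of them. Of these genes, 34 had a probe on the array, out of 16593 genes with a symbol in all, and 31 were bright enough to be tested. Cd68 and Npc1 were not analysed here, since no probe used here carried those symbols, and the probes of Gla, Tfeb and Atp6v0d2 were detected on too few arrays (1, 1 and 0) to be tested. Among the genes, 5 are grouped as myeloid (the lysozymes Lyz1 and Lyz2, Cd68, Laptm5 and the pump subunit Atp6v0d2). Of these, Lyz2, Cd68 and Laptm5 are known mainly from macrophages and other immune cells, Atp6v0d2 also from osteoclasts, and Lyz1 was placed with them as the close relative of Lyz2. The other 31, which are used by most cells, are called ubiquitous.

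Total RNA was prepared from the whole brainstem of Vglut2:Ndufs4cKO mice at a late stage of disease (n = 4) and of Vglut2:Ndufs4cCT mice (n = 4), all of strain C57/BL6J, with 1 Illumina MouseRef-8 v2 array per mouse. Ndufs4 encodes a subunit of mitochondrial complex I, and the mice model Leigh syndrome. Both groups carried Cre recombinase under the Slc17a6 (Vglut2) promoter, which is active in glutamatergic neurons. The Vglut2:Ndufs4cKO mice had 1 deleted and 1 floxed Ndufs4 allele, and their littermates, Vglut2:Ndufs4cCT, had 1 floxed and 1 wild-type allele, so that every cell of the Vglut2:Ndufs4cKO mice carries a deleted allele, and whole tissue mixes neurons with and without Cre with all other cells.

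Lysosomes break down proteins, glycans and lipids that reach them by endocytosis, phagocytosis or autophagy. Their hydrolases work at low pH, which a proton pump, the vacuolar ATPase, sets up, and heavily glycosylated membrane proteins line the organelle. Most cells make this machinery at a steady level, under transcription factors such as Tfeb that bind the CLEAR element, while macrophages and microglia, which engulf debris, make more of it and add proteins of their own such as lysozyme. Inherited loss of many of these enzymes causes lysosomal storage disease, often with neurodegeneration.

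Values are log2 of the background-corrected, scaled signal plus 16, and a fold change on that scale understates the change of dim probes. A gene is described by its brightest tested probe, and it passed if its adjusted p from limma, taken over all 15225 tested probes, was under 0.05. Per array, 14293 to 15042 probes were detected. All arrays shared 1 beadchip, with Vglut2:Ndufs4cKO on positions E to H and Vglut2:Ndufs4cCT on positions A to D, and array position and genotype therefore cannot be told apart. Of the 4 probes of Ndufs4, 1 was lower in the Vglut2:Ndufs4cKO brainstem (log2 fold change -1.41, limma adjusted p = 0.0228). The other 3 gave -0.20, -0.14 and -0.14 and did not pass (limma adjusted p = 0.746 to 0.869). The brightest probe is among these 3, so by the rule above Ndufs4 did not pass. These 3 probes check nothing, since the positions of the probes in the gene are not given in the sources used here.

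Of the 31 tested lysosomal genes, 3 were higher in the Vglut2:Ndufs4cKO brainstem, none was lower and 28 did not pass the test. The 3 were Lyz1, Lyz2 and Laptm5, which were all of the tested myeloid genes. None of the 28 tested ubiquitous genes passed. The division into myeloid and ubiquitous genes was made with earlier results of these data known. The split therefore describes the calls and is not a test of a difference between the classes. Over all 10427 tested genes, 0.777% were higher and 0.0288% lower by the same rule. By probe, 4 of the 44 tested lysosomal probes passed, against 0.703% of all tested probes. When p-values from limma were left unadjusted, 8 of the 31 genes were higher with p under 0.05 and 0 were lower, against 7.19% higher and 3.02% lower over all tested genes. The median log2 fold change was 1.58 over the 3 myeloid genes and 0.07 over the 28 ubiquitous genes, against 0.02 over all tested genes. In whole tissue, more cells of a type and more RNA per cell cannot be told apart.

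**Figure D1:**
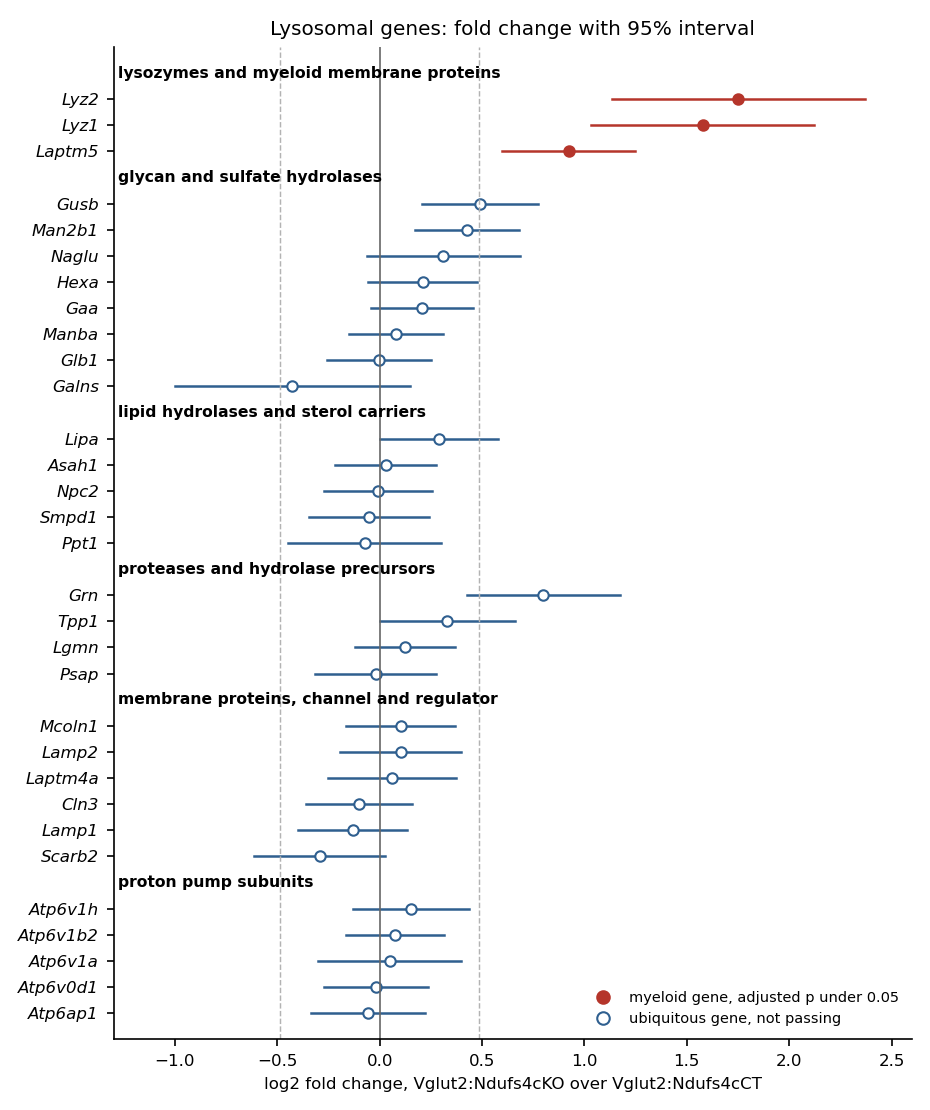
Log2 fold change (Vglut2:Ndufs4cKO over Vglut2:Ndufs4cCT, x axis) of the 31 tested lysosomal genes by role, each with its 95% interval from limma; dashed lines mark a change of 1.4-fold. Lyz2, Lyz1 and Laptm5 (filled) lie right of the upper dashed line with their whole interval, and the open points of the 28 ubiquitous genes lie between -0.43 and 0.80.

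The lysozymes are enzymes that cleave the peptidoglycan of bacterial walls. Lyz2 is the lysozyme of macrophages and neutrophils, and Lyz1 is best known from the Paneth cells of the gut. The log2 signal of Lyz1 was 13.46, 13.16, 13.23 and 12.89 in Vglut2:Ndufs4cKO replicates 1 to 4, against 12.01, 11.76, 11.79 and 10.87 in Vglut2:Ndufs4cCT replicates 1 to 4. The groups did not overlap, and Vglut2:Ndufs4cCT replicate 4 was the lowest array. The means were 13.18 ± 0.24 in Vglut2:Ndufs4cKO mice and 11.61 ± 0.50 in Vglut2:Ndufs4cCT mice (SD, n = 4 each). The log2 fold change was 1.58 (standard error, SE, 0.24, 2.98-fold, 95% interval 2.05 to 4.35, limma adjusted p = 0.0228). An exact two-sided permutation test gave p = 0.0286, which is the smallest value possible with 4 mice per group.

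Lyz2 had a log2 signal of 11.77, 11.31, 11.43 and 11.11 in Vglut2:Ndufs4cKO replicates 1 to 4, against 9.77, 9.93, 10.11 and 8.81 in Vglut2:Ndufs4cCT replicates 1 to 4. As for Lyz1, replicate 1 was the highest and replicate 4 the lowest of the Vglut2:Ndufs4cKO arrays, and Vglut2:Ndufs4cCT replicate 4 was the lowest of all. The means were 11.40 ± 0.28 in Vglut2:Ndufs4cKO mice and 9.65 ± 0.58 in Vglut2:Ndufs4cCT mice (SD, n = 4 each). The log2 fold change was 1.75 (SE 0.27, 3.37-fold, 95% interval 2.20 to 5.17, limma adjusted p = 0.0231). A second Lyz2 probe gave 11.05, 10.54, 10.59 and 10.29 in Vglut2:Ndufs4cKO replicates 1 to 4, against 9.48, 9.39, 9.32 and 8.37 in Vglut2:Ndufs4cCT replicates 1 to 4, with a log2 fold change of 1.48 (SE 0.26, limma adjusted p = 0.0406). It passed too, again with Vglut2:Ndufs4cCT replicate 4 as the lowest array.

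Not every lysozyme probe gave a signal. A further pair of probes of Lyz1 and 1 further probe of Lyz2 were detected on no array, although they are annotated to the same RefSeq transcripts as the bright probes of those genes. The genes are neighbours on chromosome 10 and closely similar copies, and the probe sequences were not used here, so how far a probe of one also binds the transcript of the other is not known and the 2 increases are not counted as independent. Their RefSeq promoters (GRCm38.p6, 250 bases before to 50 bases after the start site) had 83.6% identical bases over 298 aligned positions. They are shown because these are the genes of the set that rose most. Capitals would mark the exact run CACGTG (the CLEAR core) or GAGGAAG on either strand, a form of the site of the myeloid factor PU.1. Neither exact run was present in these windows. Other forms of the PU.1 site were not searched for, so its absence is not shown.
Lyz1, chr10:117292819-117293118, minus strand: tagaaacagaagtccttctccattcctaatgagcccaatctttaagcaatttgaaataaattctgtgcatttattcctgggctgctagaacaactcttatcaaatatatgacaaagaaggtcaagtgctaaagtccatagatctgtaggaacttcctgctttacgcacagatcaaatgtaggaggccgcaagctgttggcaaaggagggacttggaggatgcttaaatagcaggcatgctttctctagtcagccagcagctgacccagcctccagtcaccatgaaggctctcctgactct
Lyz2, chr10:117282223-117282522, minus strand: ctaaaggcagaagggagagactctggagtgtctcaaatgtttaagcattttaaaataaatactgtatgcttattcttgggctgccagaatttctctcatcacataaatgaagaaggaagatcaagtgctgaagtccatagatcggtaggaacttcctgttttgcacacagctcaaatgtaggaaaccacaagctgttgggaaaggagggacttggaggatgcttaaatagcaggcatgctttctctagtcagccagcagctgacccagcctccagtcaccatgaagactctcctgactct

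Laptm5 encodes a lysosomal membrane protein of immune cells, which helps to send immune receptors for breakdown. Its log2 signal was 13.95, 13.69, 13.91 and 13.77 in Vglut2:Ndufs4cKO replicates 1 to 4, against 12.73, 13.18, 13.04 and 12.68 in Vglut2:Ndufs4cCT replicates 1 to 4. The groups did not overlap. The means were 13.83 ± 0.12 in Vglut2:Ndufs4cKO mice and 12.91 ± 0.24 in Vglut2:Ndufs4cCT mice (SD, n = 4 each). The log2 fold change was 0.92 (SE 0.15, 1.90-fold, 95% interval 1.51 to 2.38, limma adjusted p = 0.0237). Here Vglut2:Ndufs4cCT replicates 1 and 4 were the lowest arrays. Its promoter window held 1 GAGGAAG, in capitals and on the opposite strand, beginning 39 bases before the start site, a run that 13.6% of the 32851 promoters of the RefSeq table also hold.
Laptm5, chr4:130913066-130913365, plus strand: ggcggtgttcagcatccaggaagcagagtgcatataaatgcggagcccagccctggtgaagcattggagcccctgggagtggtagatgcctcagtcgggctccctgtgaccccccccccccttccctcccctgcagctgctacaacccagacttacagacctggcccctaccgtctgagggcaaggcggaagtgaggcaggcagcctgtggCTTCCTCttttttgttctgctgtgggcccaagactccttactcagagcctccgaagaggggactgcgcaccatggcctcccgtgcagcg
Laptm4a, a ubiquitous relative of Laptm5, had a log2 fold change of 0.06 (95% interval -0.25 to 0.37, limma adjusted p = 0.922). The difference between the changes of the relatives was not tested.

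The calls depended on which arrays were used. With 1 array left out, the log2 fold change of Lyz1 was between 1.33 and 1.71, that of Lyz2 between 1.47 and 1.90 and that of Laptm5 between 0.85 and 1.01, but each adjusted p from limma could exceed 0.05, at most 0.0827, 0.0844 and 0.0934. All 3 calls were lost without Vglut2:Ndufs4cCT replicate 3 (adjusted p = 0.0635 for Lyz1, 0.0514 for Lyz2 and 0.0656 for Laptm5) and without any of Vglut2:Ndufs4cKO replicates 1, 2 and 3 (0.0617 to 0.0934), and the count fell to 0. Without Vglut2:Ndufs4cCT replicate 1, Lyz2 (0.0656) and Laptm5 (0.0739) were lost, without Vglut2:Ndufs4cCT replicate 2, Lyz1 (0.0612) and Lyz2 (0.0607), and without Vglut2:Ndufs4cCT replicate 4, Laptm5 (0.0875). Without Vglut2:Ndufs4cKO replicate 4 all 3 passed.

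Some markers of microglia and macrophages were higher in the Vglut2:Ndufs4cKO arrays too. Of 14 such markers, 13 had a probe and 10 were tested, of which 3, the complement subunits C1qa, C1qb and C1qc, were higher and 7 did not pass. Over all tested genes, 0.777% were higher by the same rule. All 10 markers had positive log2 fold changes (median 1.14). Of them, 9 had an unadjusted p from limma under 0.05, against 7.19% higher over all tested genes. Without overlap, 7 of the 10 were higher, against 4.29% of all tested genes. Among these, Cx3cr1, Tyrobp, Emr1 and Fcer1g did not pass. The summed signal of the tested markers was between 14954 and 32710 in Vglut2:Ndufs4cKO mice, against 8684.5 to 10613 in Vglut2:Ndufs4cCT mice. The markers of resident microglia P2ry12 and Tmem119 had log2 fold changes of 0.16 (limma adjusted p = 0.834) and 0.38 (limma adjusted p = 0.451), with overlap between the groups, as had Aif1 at 1.08 (limma adjusted p = 0.379). Itgam was detected on no array. Of 8 neutrophil markers, 4 were tested and none passed. All 4 had negative log2 fold changes (median -0.67). Of them 1, Camp at -0.95 (limma adjusted p = 0.158), was lower without overlap, against 2.03% of all tested genes. The summed signal of the tested neutrophil markers was between 532.45 and 1133.8 in Vglut2:Ndufs4cKO mice, against 558.35 to 1932.7 in Vglut2:Ndufs4cCT mice, with Cxcr2 detected on no array. The part of these cells in the increases of Lyz1, Lyz2 and Laptm5 was not tested. None of the 3 tested of 5 monocyte markers passed, with Ccr2 detected on no array, nor did the 1 tested of 8 T and B cell markers, of which 5 were detected on no array, so these cells were hardly measured. None of the tested markers of neurons (6), astrocytes (7), oligodendrocytes (6), endothelium (4) or erythroid cells (2) passed. Astrocyte markers had 4 positive and 3 negative log2 fold changes, with Gfap at 0.85 (limma adjusted p = 0.297) and Aldh1l1 at 0.49 (limma adjusted p = 0.376). Oligodendrocyte markers had 2 positive and 4 negative ones. Of these 1, Cnp at -0.27 (limma adjusted p = 0.485), was lower without overlap, against 2.03% of all tested genes. The summed neuronal markers were between 76130 and 100860 in Vglut2:Ndufs4cKO mice, against 89431 to 96455 in Vglut2:Ndufs4cCT mice. Atp6v0d2, the myeloid pump subunit, was detected on no array, with log2 signals between 4.84 and 5.19.

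**Figure D2:**
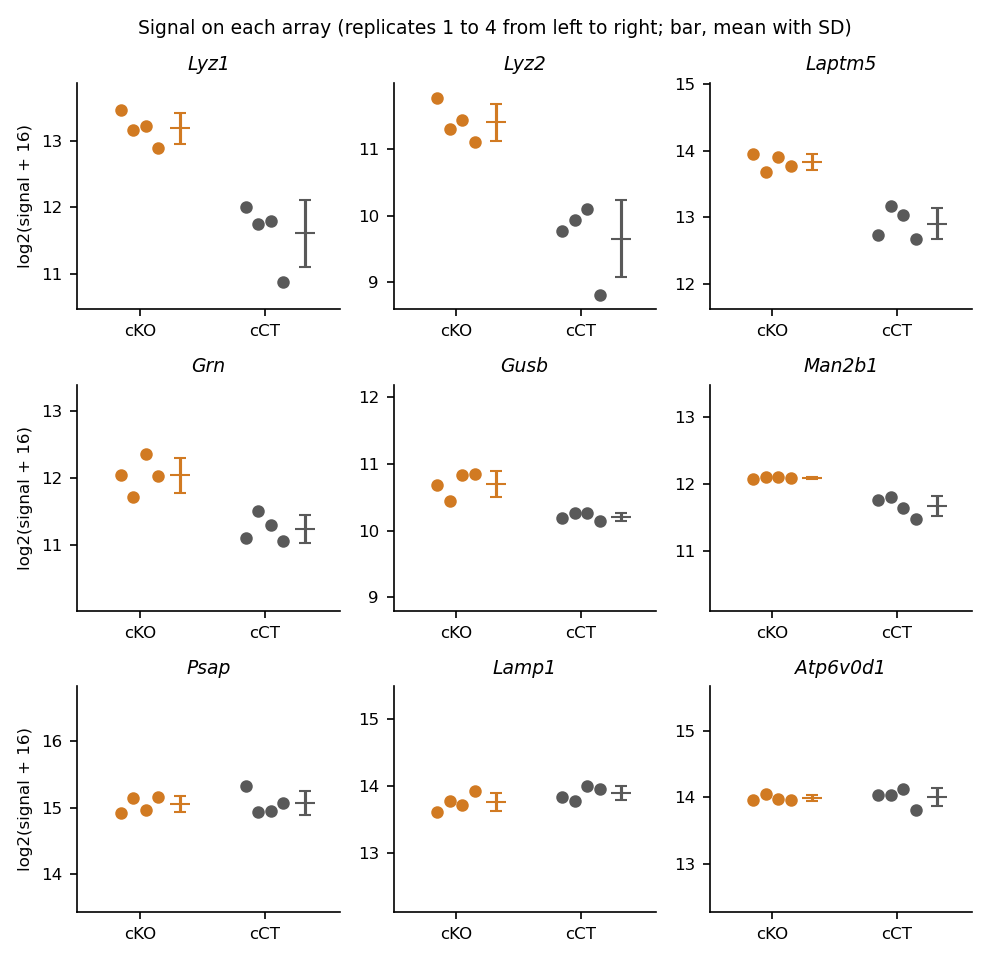
Log2 signal on each array for 9 lysosomal genes, with Vglut2:Ndufs4cKO (cKO) left and Vglut2:Ndufs4cCT (cCT) right; each point is 1 mouse, replicates 1 to 4 run from left to right, the bar is the mean with SD, and every panel spans the same range of 3.4 log2 units. In the panels of the first 6 genes (Lyz1 to Man2b1) the groups do not overlap, and in those of Psap, Lamp1 and Atp6v0d1 they do.

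Among proteases and hydrolase precursors, progranulin stood closest to the threshold. Grn encodes progranulin, which is cut into granulins in the lysosome and whose loss causes frontotemporal dementia or a neuronal ceroid lipofuscinosis. Its log2 signal was 12.05, 11.72, 12.36 and 12.03 in Vglut2:Ndufs4cKO replicates 1 to 4, against 11.10, 11.51, 11.30 and 11.05 in Vglut2:Ndufs4cCT replicates 1 to 4. The groups did not overlap, with a log2 fold change of 0.80 (SE 0.17, 1.74-fold, 95% interval 1.34 to 2.25), but the adjusted p was 0.0807 from limma. Grn is made by microglia as well as by neurons, and the part of either in its values was not tested. Psap, whose product prosaposin binds progranulin and yields the saposins that help to degrade sphingolipids, had a log2 signal between 14.93 and 15.17 in Vglut2:Ndufs4cKO mice, against 14.93 to 15.33 in Vglut2:Ndufs4cCT mice. Its log2 fold change was -0.02 (95% interval -0.32 to 0.28, limma adjusted p = 0.975).

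The remaining proteases had smaller differences. Tpp1, a tripeptidase that is missing in a childhood ceroid lipofuscinosis, had 10.58, 10.64, 10.97 and 10.40 in Vglut2:Ndufs4cKO replicates 1 to 4, against 10.18, 10.38, 10.47 and 10.24 in Vglut2:Ndufs4cCT replicates 1 to 4. The groups overlapped through Vglut2:Ndufs4cKO replicate 4, and the log2 fold change was 0.33 (SE 0.15, limma adjusted p = 0.503). Lgmn, the asparagine-specific protease legumain, had 13.03, 12.90, 13.01 and 13.05 in Vglut2:Ndufs4cKO replicates 1 to 4, against 12.77, 12.94, 12.98 and 12.82 in Vglut2:Ndufs4cCT replicates 1 to 4, with a log2 fold change of 0.12 (SE 0.11, limma adjusted p = 0.744).

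Of the 9 enzymes that cleave glycans or their sulfate groups, 8 were tested and none passed. A pair of them, Gusb and Man2b1, had higher values without overlap, against 4.29% of all tested genes. Gusb, beta-glucuronidase, had 10.68, 10.44, 10.83 and 10.85 in Vglut2:Ndufs4cKO replicates 1 to 4, against 10.18, 10.26, 10.26 and 10.14 in Vglut2:Ndufs4cCT replicates 1 to 4, a log2 fold change of 0.49 (SE 0.13, 95% interval 0.21 to 0.77, limma adjusted p = 0.168). The other tested probes of Gusb gave 0.37 (limma adjusted p = 0.596) and -0.06 (limma adjusted p = 0.927), so its probes differed in sign. Man2b1, lysosomal alpha-mannosidase, had 12.07, 12.10, 12.11 and 12.10 in Vglut2:Ndufs4cKO replicates 1 to 4, against 11.75, 11.80, 11.64 and 11.48 in Vglut2:Ndufs4cCT replicates 1 to 4, a log2 fold change of 0.43 (SE 0.11, 95% interval 0.17 to 0.68, limma adjusted p = 0.182). The Vglut2:Ndufs4cKO arrays lay close together (SD 0.015) and the Vglut2:Ndufs4cCT arrays farther apart (SD 0.14).

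Gaa, the acid glucosidase that degrades glycogen, had 13.49, 13.57, 13.53 and 13.39 in Vglut2:Ndufs4cKO replicates 1 to 4, against 13.17, 13.43, 13.29 and 13.27 in Vglut2:Ndufs4cCT replicates 1 to 4, a log2 fold change of 0.21 (SE 0.11, limma adjusted p = 0.591). The groups overlapped in 1 array of each. The log2 fold changes of the other tested glycan enzymes ran between -0.43 and 0.31. Naglu, which degrades heparan sulfate, was at 0.31, Hexa, the alpha subunit of hexosaminidase, at 0.21, Manba, beta-mannosidase, at 0.08, and Glb1, beta-galactosidase, close to 0. Galns, a sulfatase of keratan sulfate, had -0.43, with the largest error of the ubiquitous genes (SE 0.25), and it was detected on only 2 arrays of each group. Gla, alpha-galactosidase, was detected on 1 Vglut2:Ndufs4cKO array and on no Vglut2:Ndufs4cCT array, and was not tested.

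Of the 5 tested genes for lipid breakdown and sterol transport, none passed. Lipa, the acid lipase that frees cholesterol from its esters, had 9.97, 9.99, 10.10 and 9.72 in Vglut2:Ndufs4cKO replicates 1 to 4, against 9.48, 9.77, 9.66 and 9.72 in Vglut2:Ndufs4cCT replicates 1 to 4. Only Vglut2:Ndufs4cKO replicate 4 lay within the range of the Vglut2:Ndufs4cCT arrays, and the log2 fold change of 0.29 (SE 0.13) did not pass. Ppt1, which removes palmitate from proteins, had 10.23, 10.003, 10.05 and 10.52 in Vglut2:Ndufs4cKO replicates 1 to 4, against 10.03, 10.38, 10.56 and 10.13 in Vglut2:Ndufs4cCT replicates 1 to 4, a log2 fold change of -0.07 (SE 0.17, limma adjusted p = 0.918). Both groups spanned about the same range. Smpd1, acid sphingomyelinase, had 13.45, 13.51, 13.21 and 13.40 in Vglut2:Ndufs4cKO replicates 1 to 4, against 13.33, 13.69, 13.47 and 13.30 in Vglut2:Ndufs4cCT replicates 1 to 4, a log2 fold change of -0.05 (SE 0.13, limma adjusted p = 0.926), while its dimmer probes gave 0.11 and 0.06. Asah1, acid ceramidase, and Npc2, which hands cholesterol on inside the lysosome, had log2 fold changes of 0.03 and -0.01. A dimmer Asah1 probe gave -0.55 (95% interval -1.57 to 0.47), with 6.90, 5.76, 5.76 and 8.06 in Vglut2:Ndufs4cKO replicates 1 to 4, against 7.18, 7.05, 7.34 and 7.13 in Vglut2:Ndufs4cCT replicates 1 to 4.

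The structural membrane proteins showed no called difference. Of 7 genes for membrane proteins, a channel and a regulator, 6 were tested and none passed. Lamp1, the main glycoprotein of the lysosomal membrane, had 13.61, 13.78, 13.72 and 13.93 in Vglut2:Ndufs4cKO replicates 1 to 4, against 13.83, 13.78, 14.00 and 13.95 in Vglut2:Ndufs4cCT replicates 1 to 4, a log2 fold change of -0.13 (SE 0.12, 95% interval -0.40 to 0.14, limma adjusted p = 0.748). Lamp2, which also serves chaperone-mediated autophagy, was read by 4 probes annotated to a pair of RefSeq transcripts. All 4 gave small positive values, 0.10 and 0.27 for the probes of one transcript and 0.34 and 0.20 for those of the other, and none passed (adjusted p = 0.463 to 0.831 from limma).

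Scarb2, the membrane protein LIMP-2 that carries glucocerebrosidase to the lysosome, was the gene with lower values without overlap. It had 9.75, 9.59, 9.76 and 9.80 in Vglut2:Ndufs4cKO replicates 1 to 4, against 9.83, 10.38, 9.96 and 9.90 in Vglut2:Ndufs4cCT replicates 1 to 4. Vglut2:Ndufs4cKO replicate 4 and Vglut2:Ndufs4cCT replicate 1 almost touched, and the log2 fold change of -0.29 (SE 0.14, 95% interval -0.62 to 0.03) did not pass (limma adjusted p = 0.554). Over all tested genes, 4.29% were higher and 2.03% lower without overlap, and of the 31 lysosomal genes 6 were higher (Lyz1, Lyz2, Laptm5, Grn, Gusb and Man2b1) and 1 lower. Mcoln1, the calcium channel of the lysosomal membrane, had 10.25, 10.45, 10.34 and 10.28 in Vglut2:Ndufs4cKO replicates 1 to 4, against 10.12, 10.15, 10.44 and 10.20 in Vglut2:Ndufs4cCT replicates 1 to 4, a log2 fold change of 0.10 (SE 0.12, limma adjusted p = 0.806). Cln3, a membrane protein lost in juvenile ceroid lipofuscinosis, was at -0.10. The probes of Tfeb, the transcription factor itself, were detected on 1 Vglut2:Ndufs4cKO array with one probe and on no array with the other, so its level could not be compared at this signal.

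The subunits of the proton pump had the narrowest spread of changes. By their brightest probes, all 5 tested subunits had log2 fold changes between -0.06 and 0.15. The 95% interval of each of these probes lay within a change of 1.4-fold in either direction. Atp6v1h, a subunit of the V1 sector that couples it to the membrane, had 14.34, 14.51, 14.50 and 14.37 in Vglut2:Ndufs4cKO replicates 1 to 4, against 14.03, 14.38, 14.44 and 14.27 in Vglut2:Ndufs4cCT replicates 1 to 4, a log2 fold change of 0.15 (SE 0.13, limma adjusted p = 0.727). Atp6v1b2, part of the catalytic head, had 14.82, 14.85, 14.82 and 15.02 in Vglut2:Ndufs4cKO replicates 1 to 4, against 14.81, 14.85, 14.82 and 14.74 in Vglut2:Ndufs4cCT replicates 1 to 4, a log2 fold change of 0.07 (SE 0.11, limma adjusted p = 0.852). In both genes the groups overlapped. Atp6ap1, an accessory protein of pump assembly, had 14.99, 14.98, 14.97 and 15.20 in Vglut2:Ndufs4cKO replicates 1 to 4, against 15.01, 15.25, 15.20 and 14.91 in Vglut2:Ndufs4cCT replicates 1 to 4, a log2 fold change of -0.06 (SE 0.12, limma adjusted p = 0.915). Atp6v1a, the catalytic subunit, was at 0.05, and Atp6v0d1, which links the sectors in most cells, was read by 4 probes between -0.13 and 0.17, with -0.02 for the brightest. Its dimmer probes at -0.13 and -0.10 had 95% intervals of -0.58 to 0.32 and -0.63 to 0.44, which reached past 1.4-fold.

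**Figure D3:**
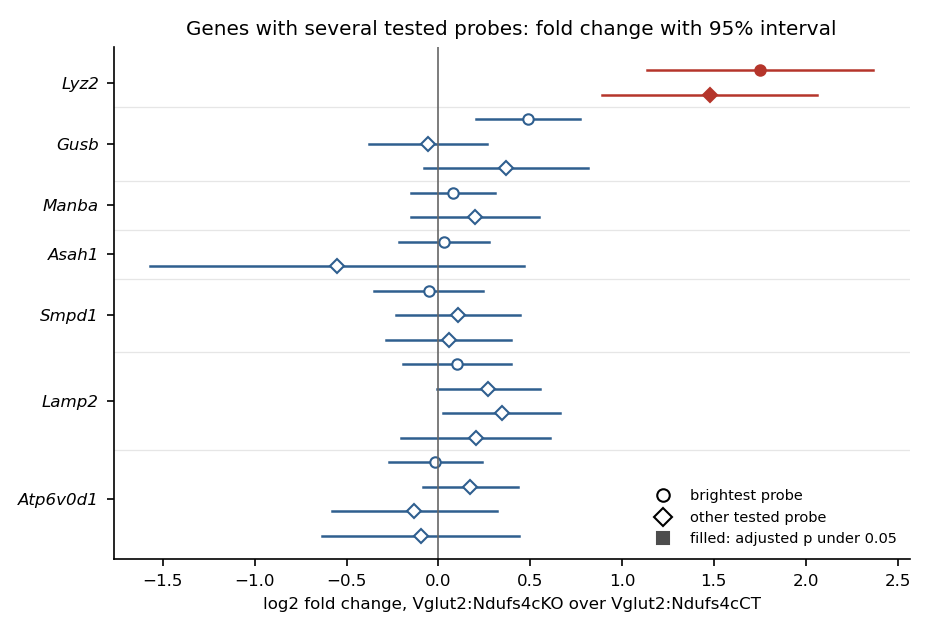
Log2 fold change with its 95% interval for every tested probe of the 7 lysosomal genes with more than 1 tested probe, the brightest probe of each gene at the top (circle). Both Lyz2 probes are filled (adjusted p under 0.05), the 4 Lamp2 probes lie between 0.10 and 0.34, and the probes of Gusb, Asah1, Smpd1 and Atp6v0d1 lie on both sides of 0.

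How small a difference these arrays could miss was read from the intervals. Of the 28 ubiquitous genes, 20 had a 95% interval within 1.4-fold in either direction and 27 within 2-fold, and Grn was the gene that exceeded 2-fold. The 8 genes whose interval reached past 1.4-fold were Gusb, Man2b1, Naglu, Galns, Lipa, Tpp1, Grn and Scarb2. A missed threshold does not show that these genes had equal levels.

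The promoter windows were read for the CLEAR core, CACGTG, and for the longer run TCACGTG on either strand, because many lysosomal genes are known targets of Tfeb and its relatives. A promoter was found in the RefSeq table for 30 of the 36 genes. The longer run was present for 10 of these 30 genes, against 4.29% of the 27025 genes of the table, and CACGTG was present for the same 10 genes, against 8.09%. All 10 were among the 26 ubiquitous genes and none among the 4 myeloid ones. Of the 10, 9 were tested and 0 passed. Over all tested genes 0.806% passed in either direction, so 0 of 9 does not set these genes apart. GAGGAAG was present for 6 of the 30 genes (Cln3, Gla, Gusb, Laptm5, Lipa and Man2b1), against 15.4% of all genes. A match of letters is a description of the window, not a binding site. Since only 4.29% of all genes hold the longer run, most genes lack it, as the lysozyme promoters do. A link between the run and the calls was not tested. The stretches that hold the run in the 9 tested genes have it in capitals, with 12 bases on either side (GRCm38.p6).
Lamp1, chr8:13159087-13159163, plus strand: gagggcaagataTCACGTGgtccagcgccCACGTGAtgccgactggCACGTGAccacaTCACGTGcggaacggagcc
Mcoln1, chr8:3500435-3500492, plus strand: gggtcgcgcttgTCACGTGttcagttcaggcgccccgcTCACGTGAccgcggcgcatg
Cln3, chr7:126583339-126583397, minus strand: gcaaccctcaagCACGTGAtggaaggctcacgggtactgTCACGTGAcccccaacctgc
Atp6v0d1, chr8:105566049-105566080, minus strand: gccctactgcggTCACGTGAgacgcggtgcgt
Atp6v1a, chr16:44139372-44139403, minus strand: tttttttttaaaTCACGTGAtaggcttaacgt
Gaa, chr11:119267810-119267840, plus strand: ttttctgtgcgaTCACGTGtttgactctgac
Glb1, chr9:114401017-114401047, plus strand: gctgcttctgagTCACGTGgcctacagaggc
Naglu, chr11:101070008-101070038, plus strand: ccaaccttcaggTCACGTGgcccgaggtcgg
Lgmn, chr12:102439124-102439154, minus strand: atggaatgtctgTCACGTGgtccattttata
The Lamp1 window held 4 such runs, the Mcoln1 and Cln3 windows 2 each and the others 1. The log2 fold changes of these 9 genes ran between -0.13 (Lamp1) and 0.31 (Naglu).

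Other genes of the lysosome were read in the same way. Of 59 listed, 52 had a probe and 48 were tested, of which 2 were higher, 0 lower and 46 did not pass. Over all tested genes, 0.777% were higher and 0.0288% lower by the same rule. With unadjusted p from limma under 0.05 there were 8 higher and 1 lower, against 7.19% and 3.02% of all tested genes. Their median log2 fold change was 0.02, as over all tested genes. The 2 were transporters of phagocytes. Slc11a1, which moves metal ions out of the phagosome, had a log2 fold change of 0.81 (limma adjusted p = 0.0195), and its 3 dimmer probes gave 1.67, 1.73 and 1.29, of which the last did not pass. Slc15a3, which carries histidine and peptides, had a log2 signal of 7.91, 7.91, 9.08 and 8.15 in Vglut2:Ndufs4cKO replicates 1 to 4, against 6.58, 6.14, 6.11 and 5.61 in Vglut2:Ndufs4cCT replicates 1 to 4, a log2 fold change of 2.15 (limma adjusted p = 0.0149). The groups did not overlap. Both calls were lost without Vglut2:Ndufs4cCT replicate 3, and that of Slc11a1 also without Vglut2:Ndufs4cCT replicates 1 or 4 or Vglut2:Ndufs4cKO replicates 1, 2 or 3, while Tcirg1 passed without Vglut2:Ndufs4cKO replicate 4.

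Among the 18 other enzymes and cofactors with a probe, 14 were tested and none passed. The smallest p were those of Ifi30, a thiol reductase of antigen-presenting cells, with a log2 fold change of 0.78 (limma adjusted p = 0.121), and Dnase2a, which degrades DNA of engulfed cells, with 0.59 (limma adjusted p = 0.430). Among 8 genes of mannose 6-phosphate sorting and relatives of Tfeb, none passed. Sort1, a sorting receptor, was at -0.29 and Tfe3, a relative of Tfeb, at 0.34. The dimmer probes of Sort1 gave -0.15, 0.18 and 0.21, so its probes differed in sign. Of 13 further pump subunits none passed, and 2 were higher with an unadjusted p from limma under 0.05, against 7.19% of all tested genes. Tcirg1, the a3 subunit of osteoclasts and macrophages, was at 0.55 (limma adjusted p = 0.373) and Atp6v0e at 0.43 (limma adjusted p = 0.481). The cathepsins, the lysosomal proteases most like this set, had 10 tested genes, of which 1, Ctss, was higher (log2 fold change 1.25, limma adjusted p = 0.0164) and 9 did not pass, with a median of 0.39. By the same rule, 0.777% of all tested genes were higher. Next by p among the cathepsins were Ctsh, at 0.60 (limma adjusted p = 0.0933), and Ctsz, at 0.80 (limma adjusted p = 0.104). Ctsk, named after its values were seen, had a p close to that of Ctsz with the opposite sign, at -0.69 (limma adjusted p = 0.107), and its groups did not overlap. Of the 10 tested cathepsins, 4 were higher without overlap and 1, Ctsk, was lower, against 4.29% and 2.03% of all tested genes.

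**Figure D4:**
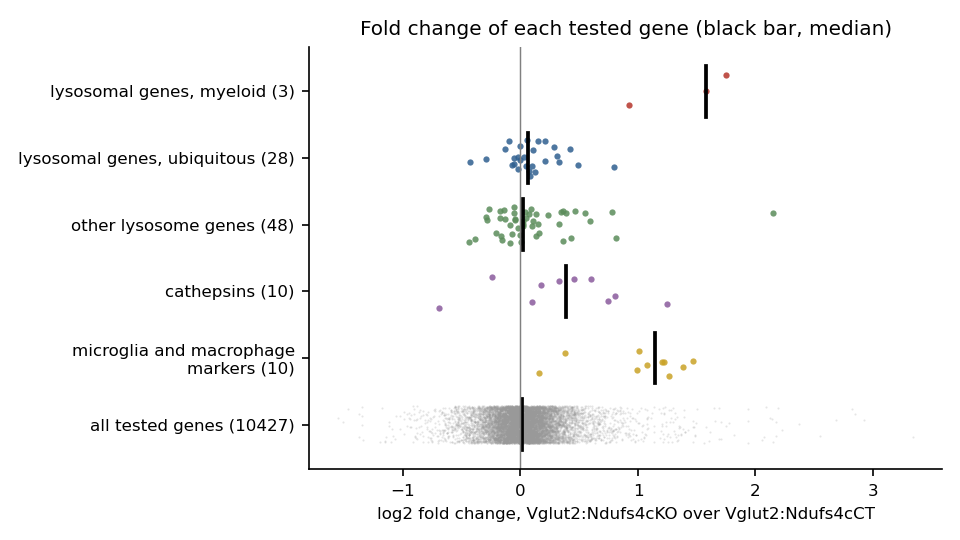
Log2 fold change (Vglut2:Ndufs4cKO over Vglut2:Ndufs4cCT, x axis) of each tested gene by its brightest probe, for the 3 myeloid and 28 ubiquitous lysosomal genes, 48 other lysosome genes, 10 cathepsins, 10 microglia and macrophage markers and all 10427 tested genes, with each median as a black bar. The medians are 1.58, 0.07, 0.02, 0.39, 1.14 and 0.02 in that order.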

How the data were processed

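The deposited table of the authors gives, per the file headers, each probe's signal intensity, bead error and detection p-value, not yet normalized. Per the paper's methods, labelled RNA was hybridized to the beadchips and read into GenomeStudio, whose version is not given in the sources used here. A second deposited table holds the authors' intensities after background subtraction and average normalization, partly below 0. The number of beads per probe in the deposited table was used only as a summary. Probe symbols are those of GEO's platform annotation, and promoters are RefSeq's (GRCm38.p6). In all, 23978 of 25697 probes had a symbol.

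Calculations used R 4.3.3 and limma 3.58.1. Background was removed with normexp, fitted from detection p-values, and each array was scaled to an equal mean by 1 factor (0.876 to 1.09). Probes were kept where 3 or more of the 8 arrays had a detection p under 0.05. After adding 16, their log2 values were fitted with a linear model of the 2 groups and Benjamini-Hochberg adjustment over all tested probes. The paper's custom error model was not among the tools at hand. Mice are the replicates. The fit was tested on simulated data. The alternatives changed the normalization (quantile, or the authors' table with values below 0 set to 0), the background step (left out), the added value (1 or 50) or the filter (none, or detection p under 0.01 on every array of 1 group). Others used array weights, a robust fit with a variance trend, a block for the replicate number, a gene's mean over its probes, or left out 1 array at a time. The genes, their division into myeloid and ubiquitous, and the other lists were chosen with earlier results of these data known. All 8 values are given for lysosomal genes of the set that passed and for up to 3 others with the smallest p in each role. From the other lysosome genes and the cathepsins, those that passed and otherwise the 2 with the smallest p in each role are named.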

Additional observations from a re-analysis of the deposited data

Results flagged for a closer look

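In 3 of 62 groups of 4 arrays (31 genes in each group of mice), 1 array lay far from the other 3 by Dixon's test at 95%, as chance gives in about 1 of 20 groups. All 3 were Vglut2:Ndufs4cKO arrays and proton pump subunits. Atp6v0d1 had a log2 signal of 14.06 in Vglut2:Ndufs4cKO replicate 2, against 13.96 to 13.97 in the other Vglut2:Ndufs4cKO mice. Atp6v1b2 had 15.02 in Vglut2:Ndufs4cKO replicate 4, against 14.82 to 14.85 in the others of its group, and Atp6ap1 had 15.20 in Vglut2:Ndufs4cKO replicate 4, against 14.97 to 14.99.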

How the results depend on the processing

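The 3 calls (Lyz1, Lyz2 and Laptm5) were kept under every alternative that used all 8 arrays, other than the replicate block, and Grn joined them with no background correction (adjusted p = 0.038), a variance trend (0.0299) and array weights (0.0417). Of the 28 genes that did not pass, Grn was the only one that passed under any alternative, and 9 genes changed sign under at least 1, each with a log2 fold change of at most 0.0733 in size. With 1 array left out, 0 to 3 of the lysosomal genes, 0 to 3 of the other lysosome genes and 30 to 357 of all probes passed (107 with all arrays). The 357, of which 123 were lower, came without Vglut2:Ndufs4cKO replicate 4. Leaving out any other array gave 30 to 66 probes. Array weights gave 240 probes. With the replicate number as a block, 0 lysosomal genes, 0 other lysosome genes and 11 probes passed. Same-numbered mice did not deviate together (correlations between -0.261 and -0.191), so the numbers are not taken as a pairing. Under no scaling did the median of all genes move by over 0.1. Dim probes limit what can be said of Gla, Tfeb, Galns and Atp6v0d2.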
